A study of Drosophila melanogaster with 2 samples.

Results

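The genes described here are 10 transcription units of the Enhancer of split complex, a cluster of Notch target genes on chromosome arm 3R of Drosophila melanogaster. They were taken from the deposited gene table by their symbols and are 10 of its 15627 genes. All 10 start between 21820000 and 21868000 in the dm3 build. The cluster was selected on the difference between the log2 RPKM values of the ChIP and input libraries described here, in which m4 was among the lowest genes. The ratios below are therefore descriptions, and no test of them is given.

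Chromatin immunoprecipitated with an antibody against dBigH1 gave 1 library, and input DNA, for which no antibody was used, gave 1 library. Both came from embryos of w1118, a white-eyed laboratory stock, aged 0 to 2 h after fertilization. dBigH1 is the linker histone H1 variant of the early embryo and the germ line. Linker histones bind where DNA enters and leaves the nucleosome, and dBigH1 gives way to somatic H1 in somatic cells as the embryo cellularizes. The study asked how dBigH1 is distributed along the genome at this stage. Whole embryos were used, so each level is an average over all nuclei, and the share of nuclei with dBigH1 and its amount per nucleus cannot be told apart.

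In Notch signalling, the ligand Delta on one cell binds Notch on its neighbour, and the cleaved intracellular part of Notch joins Su(H) and mastermind in the nucleus to switch on target genes. The Enhancer of split complex holds many of the best known of these targets. Its bHLH genes encode repressors that recruit the corepressor Groucho and hold back the proneural genes, so that a cell does not become a neural precursor. Its Bearded-type genes encode small proteins, the best studied of which bind Neuralized, the ubiquitin ligase that promotes Delta endocytosis, and block its activity. Of the members, 6 are bHLH genes (HLHmdelta, HLHmgamma, HLHmbeta, HLHm3, HLHm5 and HLHm7) and 4 are of the Bearded type (malpha, m2, m4 and m6), by their current RefSeq names.

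The reads per gene summed to 5206548 in the ChIP library and 3696767 in the input, and the 10 members held 592 and 526 of them. With 1 library in each group no difference has a replicate check. Levels are given as RPKM, the reads of a gene scaled to its length, introns included, and to the depth of the library. Ratios are log2 of ChIP RPKM over input RPKM after 1 RPKM was added to each, so ratios of weakly covered genes are drawn toward 0. All intervals are exact Clopper-Pearson 95% intervals, which hold counting error alone and take no account of PCR copies of the same molecule. The median log2 ratio of all genes was -0.04, and each library was scaled to its own reads, so a ratio of 0 does not give the absolute amount of dBigH1.

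Together the members had less dBigH1 ChIP than input, but their single ratios lay on both sides of the median of all genes. Their pooled reads gave 6.95 RPKM in the ChIP library and 8.66 RPKM in the input, over 9682 bp. The pooled log2 ratio, with nothing added, was -0.32 (interval -0.49 to -0.15), and without m4 it was -0.23 (interval -0.41 to -0.05). The same pooled ratio over all genes was 0.01. The median log2 ratio of the 10 members was -0.27, with a range of -1.14 to 0.19. The ratio was under the median of all genes in 7 of the 10 members. In 3 of them (m4, HLHm5 and HLHm7) the whole interval was under it, against 9.59% of all genes. No member had an interval above the median, against 10.6% of all genes.

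**Figure D1:**
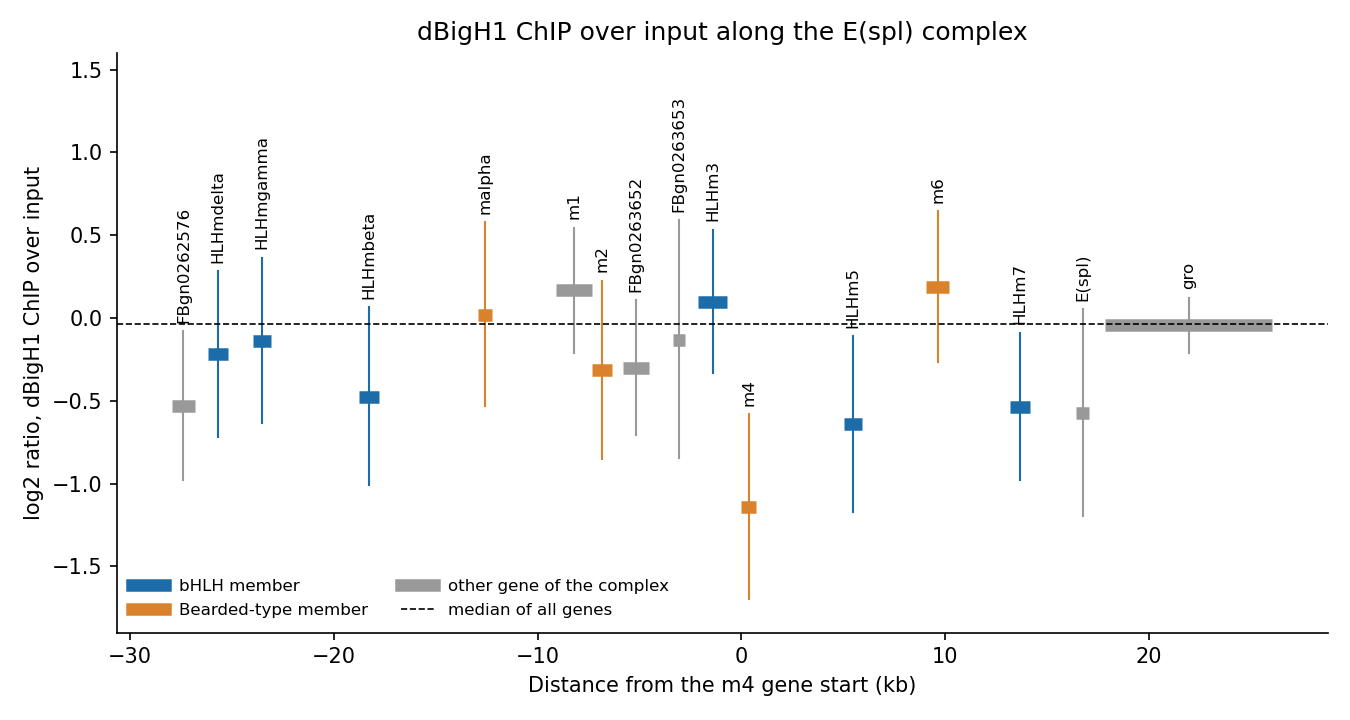
The log2 ratio of dBigH1 ChIP over input (vertical axis) is drawn at the place of each gene of the complex, as distance in kb from the start of m4 (horizontal axis). Thick bars span the gene, thin lines are exact 95% counting intervals, and the dashed line is the median of all genes (-0.04). m4 is lowest at -1.14, while HLHm3 just to its left lies at 0.10. HLHm5, the next gene to its right, lies at -0.64, and m6 beyond HLHm5 at 0.19.

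The Bearded-type genes held both the lowest and the highest ratio of the complex. m4, whose product inhibits Neuralized, lies at 21849548 to 21850280 on the minus strand. It had 34 reads and 5.27 RPKM in the ChIP library, against 59 reads and 12.8 RPKM in the input. Its log2 ratio was -1.14 (interval -1.70 to -0.58), the 128th lowest of all genes and the 5th lowest of 3606 genes of like width. Genes of like width are those between the shortest and the longest member, 676 to 1413 bp. The ranks are part of why the cluster was picked. In the ranking of all genes, CG17982 (-1.15) was the nearest gene with a symbol below m4.

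The input library set m4 apart more than the ChIP library did. Its input level was at percentile 99.3 among genes of like width, where 25 genes, itself included, were at least as high. Its ChIP level was at percentile 30.6 of the same genes. The m4 ratio therefore combined an input level near the top of its width class with a ChIP level in the lower part of it. The input level enters the ratio by definition, and why it was high at m4 was not tested.

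malpha, the other Bearded-type gene known to act on Neuralized, showed no such gap between the libraries. It lies at 21836615 to 21837290 on the plus strand and had 57 reads and 9.58 RPKM in the ChIP library, against 40 reads and 9.43 RPKM in the input. The log2 ratio of malpha was 0.02 (interval -0.53 to 0.58). Its levels were at percentiles 96.1 in the ChIP library and 93.6 in the input among genes of like width, so malpha was high in both.

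The remaining Bearded-type genes lay on either side of the median of all genes. m6, at 21858633 to 21859769 on the plus strand, had 86 reads and 8.59 RPKM in the ChIP library and 53 reads and 7.43 RPKM in the input. Its log2 ratio of 0.19 (interval -0.27 to 0.65) was the highest of the members. m2, at 21842236 to 21843192 on the minus strand, had 48 reads and 5.70 RPKM in the ChIP library and 44 reads and 7.33 RPKM in the input. The m2 log2 ratio was -0.31 (interval -0.85 to 0.22). Both of these intervals hold the median of all genes, so at this depth neither gene could be placed above or below it. The pooled reads of the 4 Bearded-type genes gave a log2 ratio of -0.29 (interval -0.57 to -0.01).

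Among the bHLH genes, the lowest ratios were those of HLHm5 and HLHm7, toward the gro end of the complex. HLHm5, at 21854576 to 21855457 on the minus strand, had 44 reads and 5.67 RPKM in the ChIP library, against 52 reads and 9.40 RPKM in the input. Its log2 ratio was -0.64 (interval -1.17 to -0.11). HLHm7, at 21862760 to 21863741 on the plus strand, had 69 reads and 7.98 RPKM in the ChIP library, against 74 reads and 12.0 RPKM in the input, a log2 ratio of -0.53 (interval -0.98 to -0.09). The 2 genes reached their ratios from different levels. HLHm5 was at percentile 38.2 in the ChIP library and 93.3 in the input among genes of like width. HLHm7 was at percentile 83.2 in the ChIP library, and only 37 of the 3606 genes of like width, itself included, had an input level as high. HLHm7 and m4 thus had the highest input levels of the members, and only m4 of the pair had a ChIP level below the median of all genes, 6.38 RPKM.

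**Figure D2:**
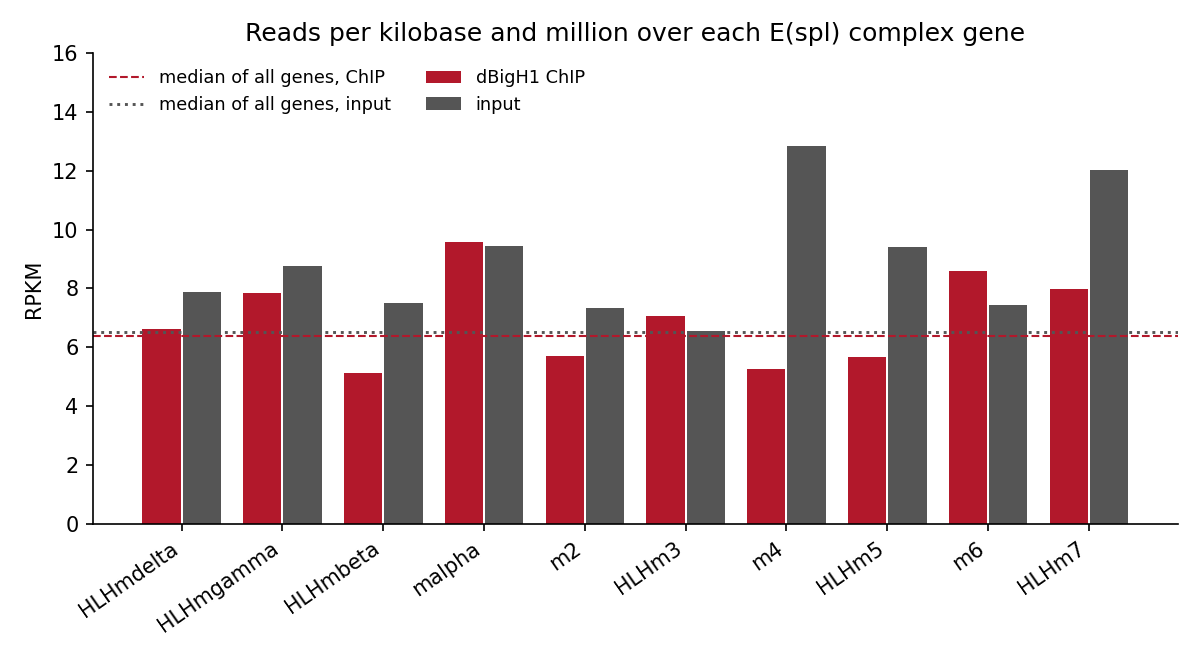
Bars give the RPKM of each member in the dBigH1 ChIP library (red) and in the input (grey), in their order along the chromosome, with the medians of all genes as a dashed line (ChIP, 6.38) and a dotted line (input, 6.51). Each bar is 1 library, so there is no error bar. All 10 input bars stand above the input median, by least for HLHm3 (6.54), while 6 of the 10 ChIP bars stand above the ChIP median.

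HLHmbeta, which has been studied in the developing wing, had the next lowest ratio. It lies at 21830768 to 21831745 on the minus strand and had 44 reads and 5.11 RPKM in the ChIP library, the lowest ChIP level of the members, against 46 reads and 7.50 RPKM in the input. The log2 ratio of HLHmbeta was -0.48 (interval -1.01 to 0.06). It lay just above a log2 ratio of -0.5, the threshold used for counts, and HLHm7 lay just below it.

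The remaining 3 bHLH genes were closer to the median of all genes. HLHmdelta, used as a marker of one photoreceptor of the developing eye, lies at 21823343 to 21824355 on the plus strand. It had 59 reads and 6.62 RPKM in the ChIP library and 50 reads and 7.87 RPKM in the input, a log2 ratio of -0.22 (interval -0.72 to 0.28). HLHmgamma, known from neural stem cells, is its neighbour at 21825573 to 21826483 on the plus strand. HLHmgamma had 63 reads and 7.86 RPKM in the ChIP library and 50 reads and 8.75 RPKM in the input, a log2 ratio of -0.14 (interval -0.64 to 0.36). HLHm3, at 21847437 to 21848849 on the plus strand, is the longest member and had the most ChIP reads. It had 88 reads and 7.07 RPKM in the ChIP library and 58 reads and 6.54 RPKM in the input, a log2 ratio of 0.10 (interval -0.33 to 0.53). The intervals of these 3 genes all hold the median of all genes.

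The ratios of the 2 kinds of gene overlapped, from -0.64 to 0.10 over the 6 bHLH genes and from -1.14 to 0.19 over the 4 Bearded-type genes. The bHLH median minus the Bearded-type median was -0.20 on the log2 scale, and -0.37 without m4. The pooled bHLH reads gave a log2 ratio of -0.34 (interval -0.55 to -0.12), and this interval lies within the pooled Bearded-type one.

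In the order of ratios, from m4 through HLHm5, HLHm7, HLHmbeta, m2, HLHmdelta, HLHmgamma, malpha and HLHm3 to m6, every neighbouring pair had overlapping intervals. The widest step, 0.50, was between m4 and HLHm5. m4 was the only member whose interval lay wholly below that of any other: those of malpha, HLHm3 and m6. With no pseudocount, the SD of the log2 ratio over the members was 0.45, and counting error alone had a root mean square SE of 0.28. That SD includes m4, whose low ratio picked the cluster, so no spread beyond counting error is read from it. With 1 RPKM added, the SD was 0.40 over the 10 members and 0.29 without m4. As their intervals overlapped, the middle members could not be ranked at this depth, which was 34 to 88 ChIP reads and 40 to 74 input reads per gene.

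A log2 ratio of at most -0.5 was reached by 3 of the 10 members, m4, HLHm5 and HLHm7. That ratio was reached by 7.31% of all genes and by 9.37% of genes of like width. The median of genes of like width was -0.05, close to that of all genes, and their SD of 0.35 was close to the 0.36 of all genes. A ratio of at most -1 was that of m4 alone, and 1.17% of all genes and 0.444% of genes of like width reached it. With m2 and HLHmbeta, 5 members were at or below -0.3, as were 18.7% of all genes and 24.0% of those of like width. With 99% intervals in place of 95%, m4 alone stayed wholly under the median of all genes, against 5.04% of genes. Among genes of like width, 6.54% had a 95% interval under that median. The contrast that picked the cluster is the one counted here, so nothing is read from these shares.

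**Figure D3:**
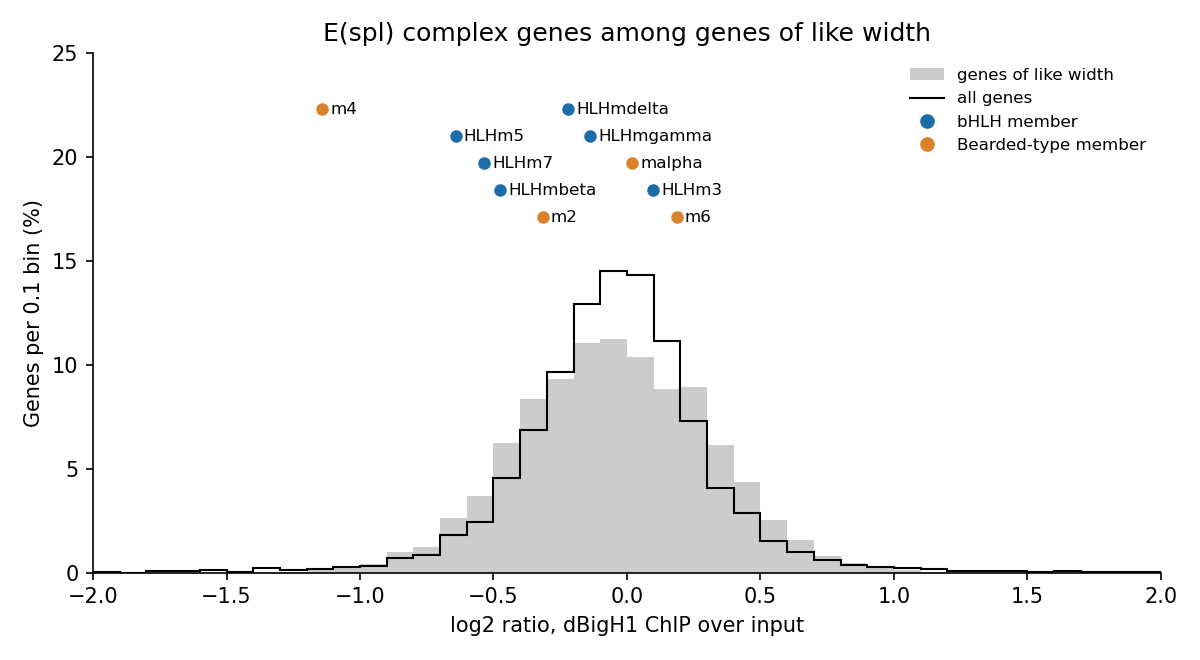
The share of genes in each 0.1-wide bin of the log2 ratio of dBigH1 ChIP over input is drawn for genes of like width (grey) and for all genes (black line), and bins outside -2 to 2 are not drawn. Points mark the members by kind at their own ratio, and their heights only keep the names apart. The points other than m4 run from -0.64 to 0.19, with HLHm5 at percentile 4.63 and HLHm7 at percentile 7.96 of genes of like width, and m4 lies farthest to the left at -1.14.

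Input levels ranged from the middle of all genes to near the top. All 10 members had an input RPKM above the median of all genes (6.51) and above that of genes of like width (6.36), with a range of 6.54 to 12.8. HLHm3 was lowest, at percentile 50.7 of all genes, and m4 highest, at percentile 97.8. Of the 10, 6 had a ChIP RPKM above the median of all genes, which by definition splits the genes evenly. The ChIP levels of the 10 ranged from 5.11 to 9.58 RPKM. Across the 10 members, Spearman's rho between the ChIP and input levels was 0.03, against 0.55 over all 15627 genes. The cluster was picked on these same 2 levels, through the high input and lower ChIP level of m4, which bears on the rho of the members. The members also had fewer reads, with medians of 58 ChIP and 51 input reads, against 98 and 74 over all genes. The 2 rho values are therefore not like for like. These genes share both libraries and the members lie in one cluster, so the values are descriptions only. No member overlaps another gene of the table, whereas 6566 genes of the table do.

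The other genes of the cluster were E(spl), m1, gro and 3 features that the table gives without a symbol. E(spl), the bHLH gene now called E(spl)m8-HLH, is a relative of HLHm5. It had 33 reads and 5.65 RPKM in the ChIP library, against 37 reads and 8.88 RPKM in the input, a log2 ratio of -0.57 (interval -1.20 to 0.05). With it, the 7 bHLH genes of the complex had a median of -0.48 and a pooled log2 ratio of -0.36 (interval -0.57 to -0.16).

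The gro gene, which encodes Groucho, the corepressor that the bHLH products recruit, was close to the median of all genes. It is 8202 bp long and had 539 reads and 7.46 RPKM in the ChIP library and 398 reads and 7.74 RPKM in the input, a log2 ratio of -0.05 (interval -0.21 to 0.12). The m1 gene, which belongs to neither family and is now called Kaz-m1, lies 26 bp from m2. It had 120 reads and 7.73 RPKM in the ChIP library and 75 reads and 6.78 RPKM in the input, and its log2 ratio was 0.17 (interval -0.21 to 0.55). Of the features with no symbol, FBgn0262576 at the HLHmdelta end had 66 reads in the ChIP library and 71 in the input, and its log2 ratio was -0.53 (interval -0.98 to -0.08). FBgn0263652 and FBgn0263653, between m2 and HLHm3, had log2 ratios of -0.30 (interval -0.71 to 0.11) and -0.13 (interval -0.85 to 0.59).

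The ratio did not run in 1 direction along the complex. HLHm3 (0.10) ends 698 bp before m4 (-1.14), and their intervals do not overlap. m6 (0.19) lies between HLHm5 (-0.64) and HLHm7 (-0.53), but its interval overlaps those of both. Each value is for a whole gene, so where within the gene or between the genes the signal lies is not analysed here. The members cover 24.0% of the 40399 bp from the first to the last of them.

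The complex lies between flanks that differed from each other. The 4 genes that start within 50 kb on the HLHmdelta side had a median log2 ratio of 0.18 and a pooled log2 ratio of 0.16 (interval 0.05 to 0.27). The 11 that start within 50 kb on the gro side had a median of -0.29 and a pooled log2 ratio of -0.13 (interval -0.23 to -0.03). One gene there, Dak1, was at -0.85 (interval -1.34 to -0.36), and it is named after its value was seen. Over 200 kb on both sides, 53 genes had a median of 0.11. Of their intervals, 11 were wholly above, and 1 wholly under, the median of all genes, against 10.6% and 9.59% of all genes. The 10 members had a pooled log2 ratio of -0.32, and -0.23 without m4, against 0.15 (interval 0.11 to 0.19) for these 53 genes. Nearer genes were more like the members. The median on the gro side, -0.29, was close to that of the members, -0.27. The 6 other genes of the complex had a median of -0.22 and a pooled log2 ratio of -0.13 (interval -0.28 to 0.01). Some of the flanking genes share coordinates or overlap, so some reads are counted for more than 1 gene.

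Genes of the Bearded family outside the complex also had low ratios. They are neighbours on arm 3L, between 14938599 and 14969140, and like m4 and malpha they encode inhibitors of Neuralized or relatives of these. The ratios of all 4 listed genes were under the median of all genes, with a median of -0.65. For 3 the whole interval was under the median of all genes, against 9.59% of all genes. Tom had 41 reads and 4.84 RPKM in the ChIP library, against 63 reads and 10.4 RPKM in the input, a log2 ratio of -0.97 (interval -1.48 to -0.46). Brd itself had 37 reads and 7.90 RPKM in the ChIP library, against 46 reads and 13.8 RPKM in the input, a log2 ratio of -0.73 (interval -1.33 to -0.13). Ocho was at -0.56, with 67 reads and 6.38 RPKM in the ChIP library, against 74 reads and 9.89 RPKM in the input. BobA was at -0.44 (interval -1.04 to 0.18), with 38 reads in each library, and it was the one whose interval holds the median.

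These 4 genes had a high input level, from 9.66 to 13.8 RPKM, as did m4. It was not particular to them, with 12.0 RPKM at HLHm7, 9.43 at malpha and 9.40 at HLHm5. Over all genes, Spearman's rho between the log2 ratio and the input level was -0.41. The ChIP levels of the 4 genes, from 4.84 to 7.90 RPKM, were less alike. Among all genes, the ChIP level was at percentile 17.9 for Tom and 25.1 for m4. It was at percentile 50.1 for Ocho, 63.2 for BobA and 83.8 for Brd. Over 183 ChIP and 221 input reads, the pooled log2 ratio was -0.76 (interval -1.05 to -0.47). The 4 Bearded-type members had a pooled log2 ratio of -0.29, against -0.76 for these 4 genes, and malpha and m6 were the members of the family above the median of all genes. The difference between the pair of clusters was not tested.

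Hairy-type bHLH repressors outside the complex, relatives of its bHLH genes, had a median log2 ratio of -0.05 over 6 genes. The lowest was h, the pair-rule gene hairy, with 161 reads and 5.23 RPKM in the ChIP library, against 175 reads and 7.98 RPKM in the input, a log2 ratio of -0.53 (interval -0.80 to -0.25). The neural stem cell gene dpn was at -0.31 (interval -0.58 to -0.05). These were the 2 whose whole interval was under the median of all genes, against 9.59% of all genes. Hey was at -0.09 and Her, now called Hesr, was highest at 0.20 (interval -0.43 to 0.84).

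The proneural genes, which the bHLH products of the complex hold back, and their partners had a median of -0.17 over 9 genes. The whole interval was under the median of all genes for 2 of them and above it for 0, against 9.59% and 10.6% of all genes. The 2 were da (-0.28, interval -0.51 to -0.05), which encodes the partner of the proneural proteins, and emc (-0.39, interval -0.61 to -0.17), which encodes their inhibitor. The lowest ratio was that of l(1)sc (-0.49, with 49 ChIP and 52 input reads), ato lay at the median (-0.17) and ase was highest (0.24, interval -0.10 to 0.58).

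Upstream in the pathway, 19 of 20 core Notch genes were matched, gro of the complex among them, and their median log2 ratio was -0.13. For 6 genes the whole interval was under the median of all genes, and for 3 it was above, against 9.59% and 10.6% of all genes. The ligand gene Dl was the lowest, with 1530 reads and 7.40 RPKM in the ChIP library, against 1437 reads and 9.76 RPKM in the input, a log2 ratio of -0.36 (interval -0.45 to -0.26). The other 5 were the receptor gene N (-0.33), neur (-0.35), which encodes Neuralized, mam (-0.13, the middle gene of the list), which encodes the coactivator mastermind, and the corepressor genes CtBP (-0.34) and H (-0.24). The 3 above were the ligand gene Ser (0.10), the glycosyltransferase gene fng (0.13) and kuz (0.05), which encodes a protease that cleaves Notch. Su(H), the DNA-binding factor that acts on the complex, was at -0.17 (interval -0.42 to 0.09), and the gamma-secretase gene pen-2 was highest (0.22, interval -0.33 to 0.79). Apart from Dl, mam and pen-2, these genes are named after their values were seen. The long genes of this list have narrow intervals, so a small difference places them below or above the median. No core gene reached -0.5, against 7.31% of all genes.

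**Figure D4:**
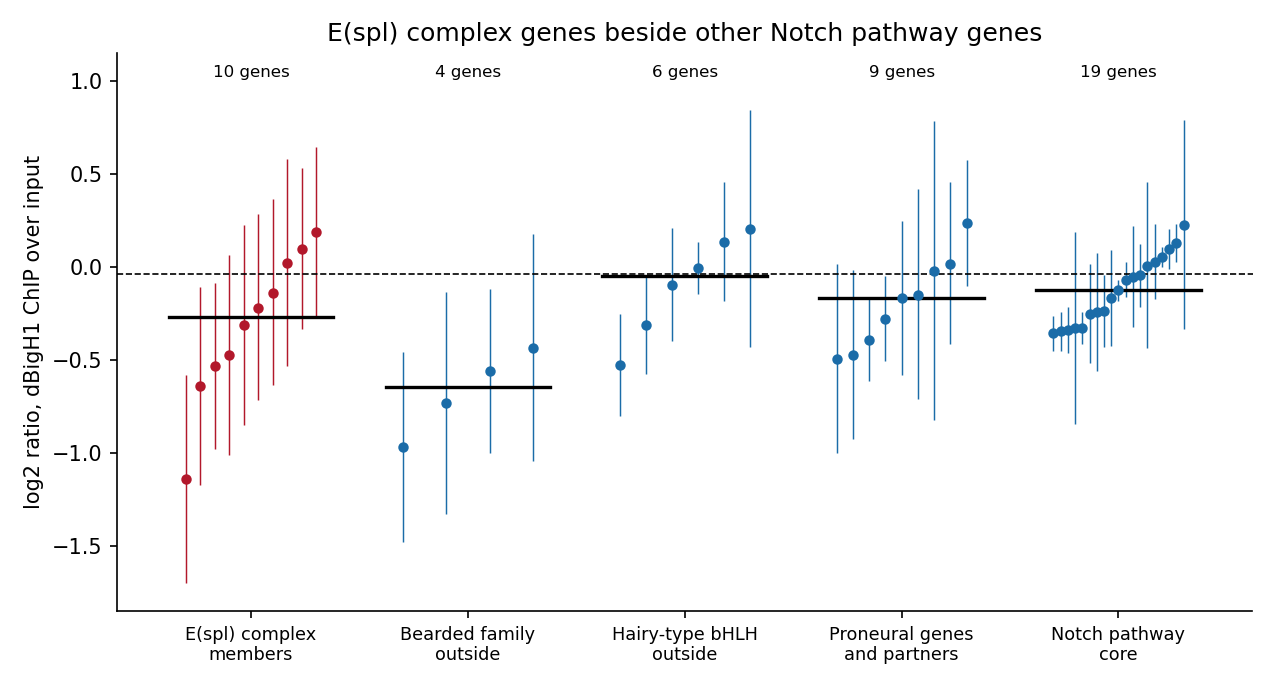
Each point is the log2 ratio of dBigH1 ChIP over input of 1 gene, with its exact 95% counting interval, for the 10 members (red) and 4 other lists of the pathway (blue). Black bars are medians, and the dashed line is the median of all genes (-0.04). The members have a median of -0.27, the Bearded family outside the complex the lowest (-0.65), and the Notch core genes lie nearer the dashed line (-0.13).

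The genes most like m4 in both libraries were found by straight-line distance on the log2 RPKM scale, over 2 libraries. They were CG12975 on arm 3L (distance 0.07), which had 5.51 RPKM in the ChIP library and 12.5 RPKM in the input, and CG15480 and noe (distance 0.10 each). CG15480 and noe both had 4.99 RPKM in the ChIP library and 12.1 RPKM in the input, from 22 and 38 reads for CG15480 and 44 and 76 reads for noe. None of the 3 is a gene of the Notch lists used here.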

How the data were processed

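Genomic DNA was measured in 1 dBigH1 ChIP library and 1 input library. The submitters' processing notes name the dm3 build, CASAVA 1.9, Bowtie2, FastQC 0.10 and R 2.15 without their roles. No source used here gives the read filters, the handling of duplicate and multiply mapped reads, or how reads were counted. Per the file headers, the authors deposited 1 log2 RPKM value per gene and library, and a score whose header calls it a log2 fold change from MAnorm. Judged by the values, 1 RPKM had been added before the log: with 1 subtracted, 100% of values were whole reads within 0.0001 reads. This gave the reads per gene and the scaling totals, 8803832 for the ChIP and 6272887 for the input. The lowest product of RPKM and gene length in each library was taken as 1 read, and all intervals rest on that. The table holds no gene without reads in either library. The deposited score has an SD of 1.00 over all genes and served as an alternative.

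The log2 ratio is the difference of the deposited log2 values. Its Clopper-Pearson interval was computed on the share of a gene's reads that came from the ChIP, then moved to that scale. The interval was checked on simulated data that held counting error alone, so the check does not bear on other sources of error. No test was run, since each group had 1 library. Genes of other lists were matched by deposited symbol, or else by name in a RefSeq table of the Release 6 assembly, which was used for names only. Bob was matched by a synonym to BobA alone, and mib1 was not matched. No sequence is shown.

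The members, lists and thresholds were chosen with earlier results of these data known. The genes named are the members, every gene of the complex interval, the lowest, highest and middle gene of each list and the 3 genes nearest m4. Others are said to be named after their values were seen, and CG17982, Ocho, dpn, da and emc are also such genes. Alternatives were pseudocounts of 0, 0.1 and 5 RPKM, centring, a lowess correction (span 0.3), the score, other thresholds and intervals, and leaving out m4. Values were computed in Python 3.11.15 with pandas 2.3.3 and numpy 2.4.6, intervals with scipy 1.17.1, the lowess fit with statsmodels 0.14.6 and figures with matplotlib 3.10.9.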

Additional observations from a re-analysis of the deposited data

How the results depend on the processing

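No member changed sign under the 3 other pseudocounts, centring, the lowess correction or the deposited score. The log2 ratio of m4 ran from -1.28 with no pseudocount to -0.80 with 5 RPKM. The count of members at or below -0.5 was 3. It was 1 with a pseudocount of 5 RPKM (2.44% of all genes) and 4 with 0 RPKM (9.87%) or 0.1 RPKM (9.66%). It was 2 after centring (6.32%) or the lowess correction (5.99%), and HLHm7 dropped out after both. At a threshold of -1 it was 1 (1.17% of all genes) and at -0.3 it was 5 (18.7%). With 99% intervals, 1 member, m4, lay below the median of all genes in place of 3 (5.04% of all genes). On the deposited score, whose scale differs, 6 members were at or below -0.5 (26.5% of all genes). On it the median was -0.79 for the members, -1.39 for the Bearded family outside the complex and -0.48 for the proneural list. Without m4, the median of the members was -0.22, and the bHLH median minus the Bearded-type median was -0.37. No paired analysis was possible because each group had 1 library. Depth limits the order of the members: HLHmgamma, with 63 ChIP and 50 input reads, had an interval from -0.64 to 0.36.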

Other observations

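The members differed by strand, a pattern noticed after the values were seen and not tested. The 4 members on the minus strand (HLHmbeta, m2, m4 and HLHm5) had log2 ratios from -1.14 to -0.31 and a pooled log2 ratio of -0.73 (interval -1.03 to -0.43). They held 170 reads in the ChIP library and 201 in the input. Of these, 34 and 59 were from m4, whose low ratio picked the cluster, and no strand pool without m4 was computed. The 6 on the plus strand ranged from -0.53 to 0.19, with a pooled log2 ratio of -0.11 (interval -0.32 to 0.10). The minus-strand members were also those with the lowest ChIP levels, 5.11 to 5.70 RPKM, against 6.62 to 9.58 RPKM for the plus-strand members, and the ranges of the members did not overlap. The other genes of the complex were mixed in this. E(spl), on the plus strand, had 5.65 RPKM in the ChIP library and a log2 ratio of -0.57. FBgn0262576 and FBgn0263652, on the minus strand, had 6.71 and 7.88 RPKM there and log2 ratios of -0.53 and -0.30. FBgn0263653, also on the minus strand, had 5.51 RPKM there and a log2 ratio of -0.13. The plus-strand genes m1 and gro had 7.73 and 7.46 RPKM there and log2 ratios of 0.17 and -0.05. Input levels of the members overlapped, at 7.33 to 12.8 RPKM for the minus strand and 6.54 to 12.0 RPKM for the plus strand. Over all genes the medians were alike, -0.04 for 7816 genes on the minus strand and -0.04 for 7811 on the plus strand.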
